A study of Mus musculus with 8 samples.

Results

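Expression of 9 genes that mark or maintain the naive, resting state of T cells was followed by RNA sequencing in splenic CD8+ T cells, the cytotoxic lineage of T lymphocytes, before and after 5 days of culture. The 9 genes, *Tcf7*, *Lef1*, *Bach2*, *Foxo1*, *Klf2*, *S1pr1*, *Ccr7*, *Id3* and *Dapl1*, were chosen by name and found by their symbols among the 48321 genes listed in the count files; all 9 were among the 12597 genes that passed the filter on low counts. The sorted cells came from C57BL/6 mice of a line with floxed *Satb1* alleles and the *E8I-cre* transgene, a recombinase active in mature CD8 lineage cells. *Satb1* encodes a nuclear DNA-binding protein that organises chromatin in T cells. Genotype (WT or KO) and time (day 0 or day 5) were read from the sample titles, giving 4 groups of 2 libraries each: WT at day 0, KO at day 0, WT at day 5 and KO at day 5. No treatment other than culture is stated for any group, and the titles do not spell out which alleles the WT animals carried. The labels give no age, do not say whether the libraries of a group came from separate mice, and call the day 5 cells only cultured, while the title of the series speaks of stimulation in vitro. The p-values therefore measure the spread between these libraries, which may be technical.

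A naive CD8+ T cell circulates between blood and lymphoid organs and divides rarely. The FOXO1 protein keeps it in this state by supporting transcription of *Klf2* and of genes for lymph node entry and cytokine reception; KLF2 in turn supports *S1pr1*, whose product lets the cell leave the lymph node, and TCF-1 (from *Tcf7*) and LEF-1 hold the naive programme of the CD8 lineage. Antigen receptor signals export FOXO1 from the nucleus, and effector cells lower most of these transcripts.

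The targeted gene did not follow the labels on both days. *Satb1* stood at 97.84 and 91.58 CPM (counts scaled to the size of the library) in the WT libraries and at 144.1 and 124.8 CPM in the KO libraries at day 0, and at 96.48 and 115.9 CPM against 56.47 and 62.29 CPM at day 5. At day 0 it was thus above WT in the KO-labelled libraries, though the difference missed the threshold (log2 fold change 0.51 ± 0.15 SE, edgeR FDR 0.125), and at day 5 it was below WT (-0.84 ± 0.15, edgeR FDR 0.0162), a call lost without WT day 5 replicate 2 (edgeR FDR 0.0848) or KO day 5 replicate 1 or 2 (0.174 and 0.156). The counts cover the whole gene and do not separate the floxed part, so every genotype difference below is one between libraries labelled KO and WT. The libraries held from 4170126 to 11117971 counts assigned to genes. The 7 CD8+ T cell markers summed to between 15650 and 16730 CPM at day 0 and between 10490 and 12150 CPM at day 5, and the 3 CD4 lineage markers to no more than 6.26 CPM in any library. The 6 B cell markers summed to between 2042 and 2444 CPM at day 0 and between 1460 and 1638 CPM at day 5, nearly all of it *Ighm* and *Cd79b*, whereas *Ms4a1* had at most 2 counts in any library. The myeloid, NK cell and red cell markers summed to no more than 19, 1.43 and 0.904 CPM. The 4 cell cycle markers (*Mki67*, *Top2a*, *Ccnb1* and *Cdk1*) summed to between 19.3 and 27.9 CPM at day 0 and between 3494 and 3770 CPM at day 5, and the part of cycling cells and of the B cell markers in the changes over culture was not tested. Because these were bulk samples, fewer cells of a type and less RNA per cell cannot be told apart.

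*Dapl1*, *Lef1* and *Bach2* carry letters upstream of a transcription start that FOXO or TCF and LEF proteins recognise, and these stretches are shown because the factors in question are members of the same group. The stretches are the 250 bases before a RefSeq start on the plus strand of GRCm38.p6: chr2:59484403-59484652 for *Dapl1*, chr3:131156044-131156293 for *Lef1*, and chr4:32417185-32417434 for *Bach2*. The starts of *Lef1* and *Bach2* lie inside the annotated genes and not at their 5′ ends. Capitals mark GTAAACA, a FOXO motif, in *Dapl1*, and TCAAAG, the reverse complement of the TCF and LEF motif CTTTGA, in *Lef1* and *Bach2*.
Dapl1: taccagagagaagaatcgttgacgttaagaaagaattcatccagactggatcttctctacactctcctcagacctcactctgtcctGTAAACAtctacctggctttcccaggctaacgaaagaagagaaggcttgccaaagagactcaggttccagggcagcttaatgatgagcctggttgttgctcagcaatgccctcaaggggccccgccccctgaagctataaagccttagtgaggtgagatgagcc
Lef1: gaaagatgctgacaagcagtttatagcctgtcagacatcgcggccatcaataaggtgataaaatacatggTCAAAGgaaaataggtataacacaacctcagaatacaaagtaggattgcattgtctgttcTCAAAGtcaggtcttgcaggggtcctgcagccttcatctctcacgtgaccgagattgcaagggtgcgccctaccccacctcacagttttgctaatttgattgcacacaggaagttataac
Bach2: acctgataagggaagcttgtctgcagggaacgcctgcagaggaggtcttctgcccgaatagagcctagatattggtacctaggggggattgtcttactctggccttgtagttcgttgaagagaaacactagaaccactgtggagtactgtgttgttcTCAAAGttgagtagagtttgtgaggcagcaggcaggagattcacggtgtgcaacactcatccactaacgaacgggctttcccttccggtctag
The FOXO letters of *Dapl1* begin 164 bases before the start, the TCF and LEF letters of *Lef1* 180 and 120 bases before it, and those of *Bach2* 93 bases before it. RefSeq held 11 windows for 7 of the 9 genes, and these were searched on both strands for the FOXO motif, the TCF and LEF motif and CCACCC, a KLF motif; no match of one overlapped a match of another. In the other windows of the members the KLF motif was the only match, in *Lef1*, *Id3*, *Klf2* and *Tcf7*. GTAAACA occurred in 3.17% of all 32851 windows of this length, CTTTGA in 13.8% and CCACCC in 28.1%. A match describes the letters only and is no evidence of binding.

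All 9 genes fell over the 5 days of culture, in WT as in KO cells. In WT cells, 48.3% of all tested genes were called in either direction (FDR below 0.05) and 23.6% were called lower, while 9 of 9 members were called lower. In KO cells, 50.2% of tested genes were called and 24% were called lower, and again 9 of 9 members were called lower. The median log2 fold change of the members was -2.16 in WT and -2.14 in KO cells, beside -0.04 and -0.05 over all tested genes. The declines were unequal: *S1pr1* and *Dapl1* lost the most and *Ccr7* the least in WT cells, where the log2 fold changes ran from -2.85 to -0.80.

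**Figure D1:**
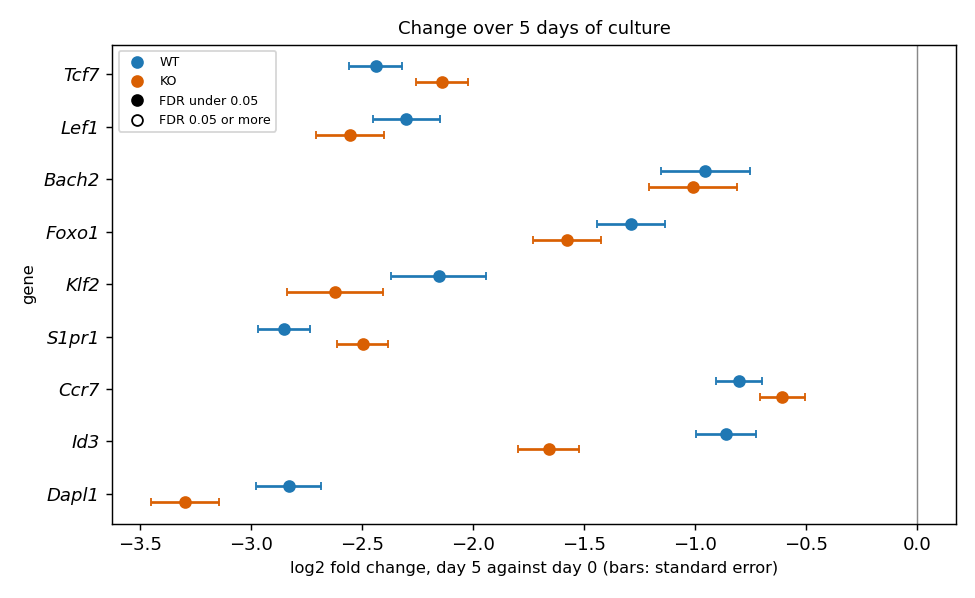
Log2 fold change of the 9 genes from day 0 to day 5 (horizontal axis) for WT (blue) and KO (orange) cells, with bars for the standard error and filled points for FDR under 0.05. All points are filled and lie left of 0, from -0.61 for *Ccr7* in KO cells to -3.30 for *Dapl1* in KO cells.

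The genotypes differed in few of these genes. At day 0, 1.8% of tested genes were called between KO and WT and 2 of 9 members were: *Dapl1* was lower and *Id3* higher in the KO libraries. At day 5, 1.63% of tested genes were called and 1 of 9 members was, *Dapl1*, again lower in KO. The median log2 fold change of the members was -0.04 at day 0 and -0.17 at day 5, beside -0.002 and 0 over all tested genes. At an unadjusted p under 0.05, 3 members at day 0 and 4 at day 5 differed, beside 1742 and 1775 of the 12597 tested genes. At day 0, some markers of regulatory T cells also moved with the genotype. The 5 markers summed to between 317 and 336 CPM in WT and between 458 and 492 CPM in KO libraries. Of the 5, 3 were called higher in KO: *Foxp3*, *Ctla4* and *Ikzf2*. Most of each sum was *Tnfrsf18*, with group means of 295.8 CPM in WT and 311.8 CPM in KO, which was not called (edgeR FDR 0.877). *Cd4* had at most 7 counts in any day 0 library. At day 5, *Foxp3* was again called higher in KO (9.64 and 23.8 CPM in WT, 51.7 and 61.9 CPM in KO libraries, edgeR FDR 0.0193) and so was the CD8+ T cell marker *Cd8a* (832.5 and 733.8 CPM against 1216 and 1164 CPM, edgeR FDR 0.0155), while the 5 regulatory T cell markers summed to between 3552 and 4235 CPM in WT and between 3542 and 4267 CPM in KO libraries. Their sum was thus also higher at day 5 than at day 0 in both genotypes. Most of the rise was in *Il2ra* and *Tnfrsf18*, and *Ctla4* was also called higher. Group means of *Il2ra* went from 2.48 to 1945 CPM in WT and from 5.52 to 1804 CPM in KO cells. *Foxp3* was not called over culture in WT (log2 fold change 0.82, edgeR FDR 0.0841) or KO cells (0.06, edgeR FDR 0.875). *Ikzf2* was not called in WT cells (0.40, edgeR FDR 0.305) and fell in KO cells (-1.75, edgeR FDR 0.000219). The part of these markers in the differences between genotypes and over culture was not tested.

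**Figure D2:**
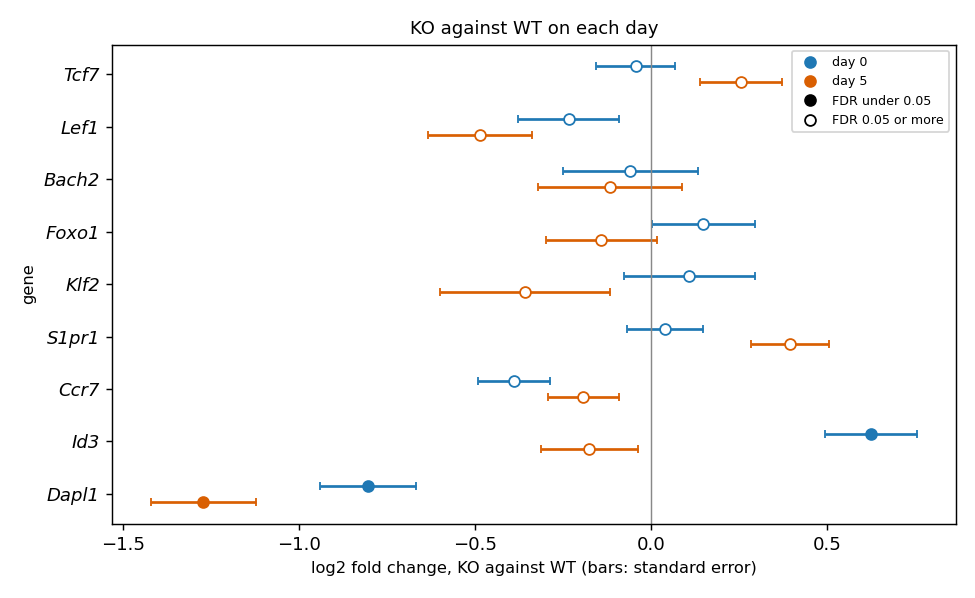
Log2 fold change of KO against WT (horizontal axis) at day 0 (blue) and day 5 (orange) for the 9 genes, with bars for the standard error and filled points for FDR under 0.05. The filled points are *Dapl1* at -0.80 and -1.27 and *Id3* at 0.63.

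*Tcf7* and *Lef1* encode related HMG-box transcription factors. *Tcf7* (GRCm38 chr11:52252371-52283014, minus strand) stood at 1030 and 1126 CPM in WT and 1013 and 1080 CPM in KO libraries at day 0, and at 187.1 and 210.4 CPM against 238.2 and 236.1 CPM at day 5. Every day 5 library was below every day 0 library; the genotypes overlapped at day 0, and at day 5 both KO libraries were above both WT libraries. *Tcf7* fell 5.43-fold in WT cells (log2 fold change -2.44 ± 0.12, edgeR FDR 6.6e-09) and 4.41-fold in KO cells (-2.14 ± 0.12, edgeR FDR 1.66e-08). The genotype difference missed the threshold on both days, at -0.04 ± 0.11 (edgeR FDR 0.916) and 0.26 ± 0.12 (edgeR FDR 0.346). *Lef1* (chr3:131110471-131224356, plus strand) stood at 1339 and 1117 CPM in WT and 1121 and 969.3 CPM in KO libraries at day 0, and at 217.6 and 281 CPM against 184.5 and 171 CPM at day 5. Here too the days were apart, the genotypes overlapped at day 0, and at day 5 both KO libraries lay below both WT libraries, the reverse of the order in *Tcf7*. *Lef1* fell 4.93-fold in WT cells (-2.30 ± 0.15, edgeR FDR 1.06e-07) and 5.88-fold in KO cells (-2.56 ± 0.15, edgeR FDR 3.75e-08), while its genotype differences of -0.23 ± 0.14 at day 0 and -0.49 ± 0.15 at day 5 missed the threshold (edgeR FDR 0.532 and 0.139). Antisense gene *Gm43352* shares 13.7% of the exon bases of *Lef1*, and since the strand setting of the counting is not given in the sources used here, reads of the pair cannot be told apart there.

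**Figure D3:**
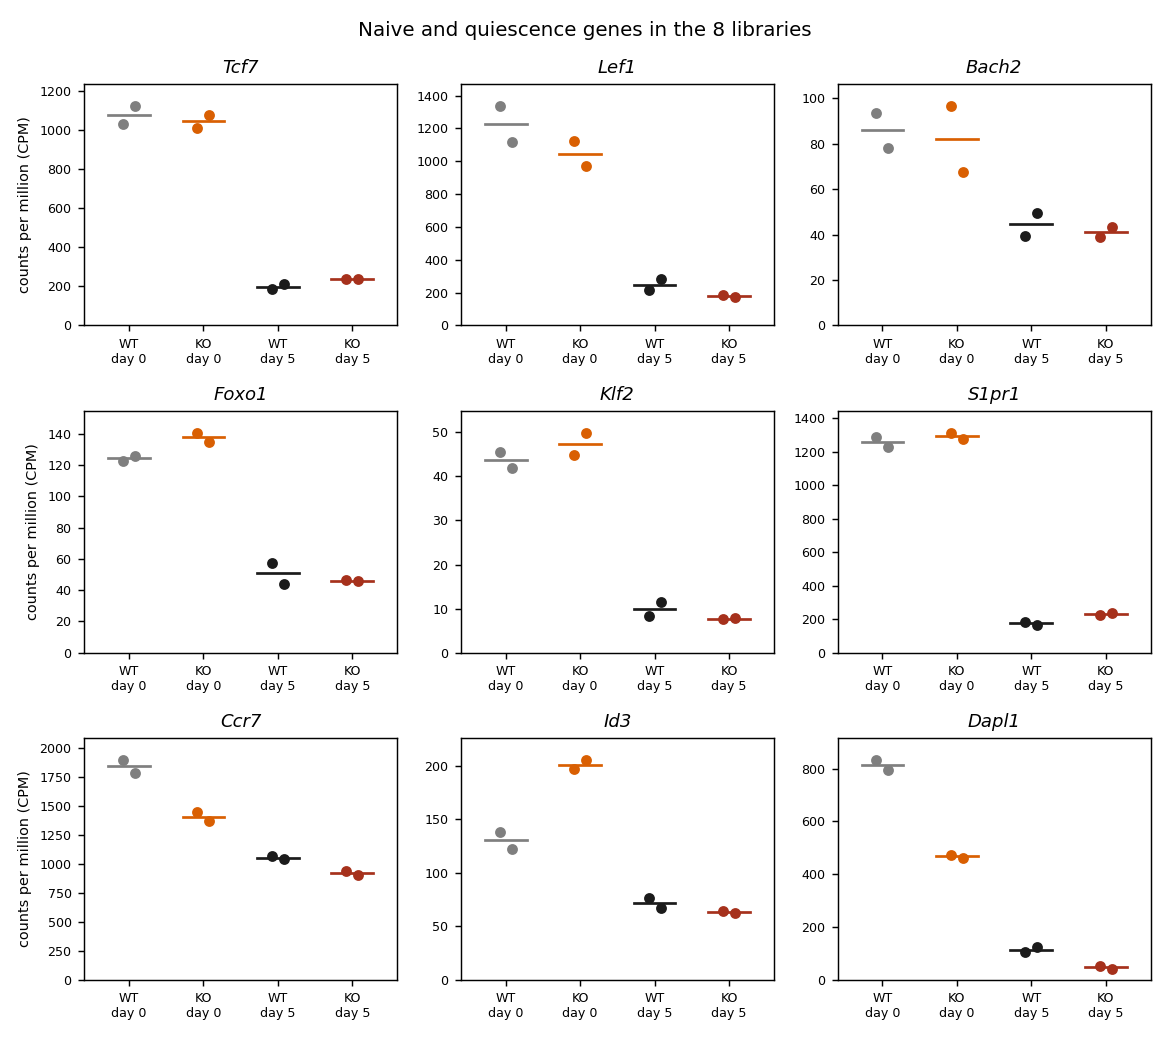
CPM (vertical axes from 0, one scale per gene) of the 9 genes in the 8 libraries; each point is a library and each line a group mean. In every panel the day 5 libraries lie below the day 0 libraries of the same genotype, and the gap between WT and KO is widest, relative to the level, for *Dapl1*.

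*Foxo1* encodes the forkhead factor and *Klf2* a zinc finger factor that it supports. *Foxo1* (chr3:52268336-52353221, plus strand) stood at 122.5 and 126.2 CPM in WT and 140.8 and 134.9 CPM in KO libraries at day 0, and at 57.5 and 43.86 CPM against 46.54 and 45.82 CPM at day 5. The KO libraries were above the WT libraries at day 0 and lay within their range at day 5. *Foxo1* fell 2.44-fold in WT cells (-1.29 ± 0.15, edgeR FDR 2.13e-05) and 2.98-fold in KO cells (-1.58 ± 0.15, edgeR FDR 3.19e-06), and the genotypes did not pass the test on either day (0.15 ± 0.15 and -0.14 ± 0.16, edgeR FDR 0.741 and 0.755). An antisense gene shares 7.78% of its exon bases. *Klf2* (chr8:72319033-72321656, plus strand) stood at 45.61 and 41.83 CPM in WT and 44.78 and 49.91 CPM in KO libraries at day 0, and at 8.29 and 11.57 CPM against 7.542 and 7.763 CPM at day 5. The genotypes overlapped at day 0, and at day 5 the KO libraries lay just below the WT libraries. It rested on 41 to 48 counts per day 5 library, so its day 5 difference carried the widest standard error of the 9 members. *Klf2* fell 4.46-fold in WT cells (-2.16 ± 0.21, edgeR FDR 4.36e-06) and 6.16-fold in KO cells (-2.62 ± 0.21, edgeR FDR 6.82e-07). Between genotypes it stood at 0.11 ± 0.18 at day 0 and -0.36 ± 0.24 at day 5 on the log2 scale, neither past the threshold (edgeR FDR 0.864 and 0.562).

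The receptors that direct traffic of naive cells behaved unlike each other. *S1pr1* (chr3:115710433-115715072, minus strand), the receptor for sphingosine 1-phosphate that guides exit from lymphoid organs, stood at 1288 and 1230 CPM in WT and 1314 and 1277 CPM in KO libraries at day 0, and at 182 and 166.5 CPM against 222.4 and 236.3 CPM at day 5. The genotypes overlapped at day 0, and at day 5 both KO libraries were above both WT libraries. *S1pr1* fell 7.22-fold in WT cells (-2.85 ± 0.12, edgeR FDR 1.26e-09) and 5.65-fold in KO cells (-2.50 ± 0.11, edgeR FDR 2.75e-09). Its genotype difference was 0.04 ± 0.11 at day 0 (edgeR FDR 0.916) and 0.40 ± 0.11 at day 5 (edgeR FDR 0.11), and the latter passed the threshold in DESeq2 (FDR 0.0467). *Ccr7* (chr11:99144196-99155077, minus strand), the chemokine receptor for entry into lymph nodes, stood at 1900 and 1789 CPM in WT and 1448 and 1371 CPM in KO libraries at day 0, and at 1070 and 1043 CPM against 940.7 and 909.8 CPM at day 5. On both days the KO libraries lay below the WT libraries without overlap, and most of the transcript was retained through culture. *Ccr7* fell 1.75-fold in WT cells (-0.80 ± 0.10, edgeR FDR 3.74e-05) and 1.52-fold in KO cells (-0.61 ± 0.10, edgeR FDR 0.000333). The genotype difference at day 0 was -0.39 ± 0.10 and missed the threshold (edgeR FDR 0.0905), but passed it in DESeq2 (FDR 0.0298) and without WT day 5 replicate 1 or 2 (edgeR FDR 0.0388 and 0.0496); at day 5 it was -0.19 ± 0.10 (edgeR FDR 0.437).

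*Id3* encodes an inhibitor of E protein transcription factors that is kept high in naive and memory-forming cells. *Id3* (chr4:136143497-136145755, plus strand) stood at 138.1 and 122.6 CPM in WT and 196.9 and 205.7 CPM in KO libraries at day 0, and at 76.37 and 66.99 CPM against 64.56 and 62.67 CPM at day 5. The KO libraries were clearly apart and high at day 0, and below the WT libraries at day 5. *Id3* was 1.54-fold higher in KO cells at day 0 (log2 fold change 0.63 ± 0.13, edgeR FDR 0.0318) and differed by -0.17 ± 0.14 at day 5 (edgeR FDR 0.644). The day 0 call was lost when any 1 of the 4 day 0 libraries or either KO day 5 library was left out, with edgeR FDR from 0.0776 to 0.299 and the log2 fold change from 0.54 to 0.71. Over culture *Id3* fell 1.82-fold in WT cells (-0.86 ± 0.14, edgeR FDR 0.000217) and 3.16-fold in KO cells (-1.66 ± 0.14, edgeR FDR 6.73e-07). *Bach2*, which encodes a repressor of effector genes (chr4:32238804-32586108, plus strand), stood at 93.73 and 78.24 CPM in WT and 96.76 and 67.72 CPM in KO libraries at day 0, and at 39.51 and 49.64 CPM against 38.81 and 43.17 CPM at day 5. Its genotypes overlapped on both days and its days did not. *Bach2* fell 1.94-fold in WT cells (-0.95 ± 0.20, edgeR FDR 0.00176) and 2.02-fold in KO cells (-1.01 ± 0.20, edgeR FDR 0.00101), with genotype differences of -0.06 ± 0.19 and -0.12 ± 0.20 (edgeR FDR 0.937 and 0.864). An antisense gene shares 5.4% of its exon bases.

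*Dapl1*, a gene used as a marker of naive CD8+ T cells, was the member that differed by genotype on both days. *Dapl1* (chr2:59484653-59505020, plus strand) stood at 832.6 and 796.4 CPM in WT and 471.9 and 462.3 CPM in KO libraries at day 0, and at 105.8 and 123.4 CPM against 53.9 and 40.9 CPM at day 5. Both KO libraries lay below both WT libraries on each day, and the day 5 libraries lay below the day 0 libraries of either genotype. *Dapl1* was 1.74-fold lower in KO cells at day 0 (log2 fold change -0.80 ± 0.14, edgeR FDR 0.0101) and 2.41-fold lower at day 5 (-1.27 ± 0.15, edgeR FDR 0.00166). The day 5 call held in all 18 alternative settings, with the log2 fold change between -1.48 and -1.09, whereas the day 0 call was lost without WT replicate 1 (edgeR FDR 0.149), WT replicate 2 (0.109) or KO replicate 2 (0.0702) of that day. Over culture *Dapl1* fell 7.12-fold in WT cells (-2.83 ± 0.15, edgeR FDR 1.13e-08) and 9.85-fold in KO cells (-3.30 ± 0.15, edgeR FDR 3.24e-09).

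The interaction tested whether KO and WT differed by a changed amount after culture: it is the log2 fold change of KO against WT at day 5 minus that at day 0. Of all tested genes 0.159% were called, and 0 of 9 members were by edgeR; at an unadjusted p under 0.05 there were 3 members, *Id3*, *Dapl1* and *S1pr1*, beside 1562 of all tested genes. The largest member interaction was that of *Id3*, -0.80 ± 0.19 (edgeR FDR 0.132), which passed the threshold in DESeq2 (FDR 0.0335). That of *Dapl1* was -0.47 ± 0.20 and that of *S1pr1* 0.35 ± 0.15 (edgeR FDR 0.366 and 0.376). A larger genotype difference of *Dapl1* at day 5 than at day 0 was therefore not shown.

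Levels were compared between genes only per kilobase of exon. In WT cells at day 0 *Dapl1* was first with 1200 CPM per kb, followed by *Ccr7* (932.6), *S1pr1* (413.3), *Tcf7* (410.7), *Lef1* (139.7), *Id3* (72.76), *Klf2* (23.67), *Foxo1* (14.35) and *Bach2* (8.65). Only *S1pr1* and *Tcf7* overlapped as neighbours in that order. In KO cells at day 0 *Ccr7* (712.5 CPM per kb) and *Dapl1* (687.9) overlapped at the top, as did *Lef1* (118.9) and *Id3* (112.4) further down. At day 5 *Ccr7* stood alone at the top, with 534.1 CPM per kb in WT and 467.8 in KO cells. *Dapl1* was second in WT cells at day 5 with 168.8 CPM per kb and in position 4 in KO cells with 69.8, where it overlapped *S1pr1* (75.29). At the bottom, *Klf2* (5.38 CPM per kb) overlapped both *Foxo1* (5.85) and *Bach2* (4.48) in WT cells at day 5, and *Klf2* and *Bach2* overlapped in KO cells. The order depended on the length used, which here was the union of all exons. Per kb of the longest transcript, chosen after the data were seen, *Lef1* rose to 285.9 and *Id3* to 157.5 CPM per kb in KO cells at day 0 without overlap, and in WT cells at day 5 *Lef1* went from position 6 to 4, with 68.19 CPM per kb and overlap with both *Tcf7* and *S1pr1*. *S1pr1* and *Tcf7* at day 0 in WT cells, and *Klf2* and *Bach2* at day 5 in KO cells, changed places.

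**Figure D4:**
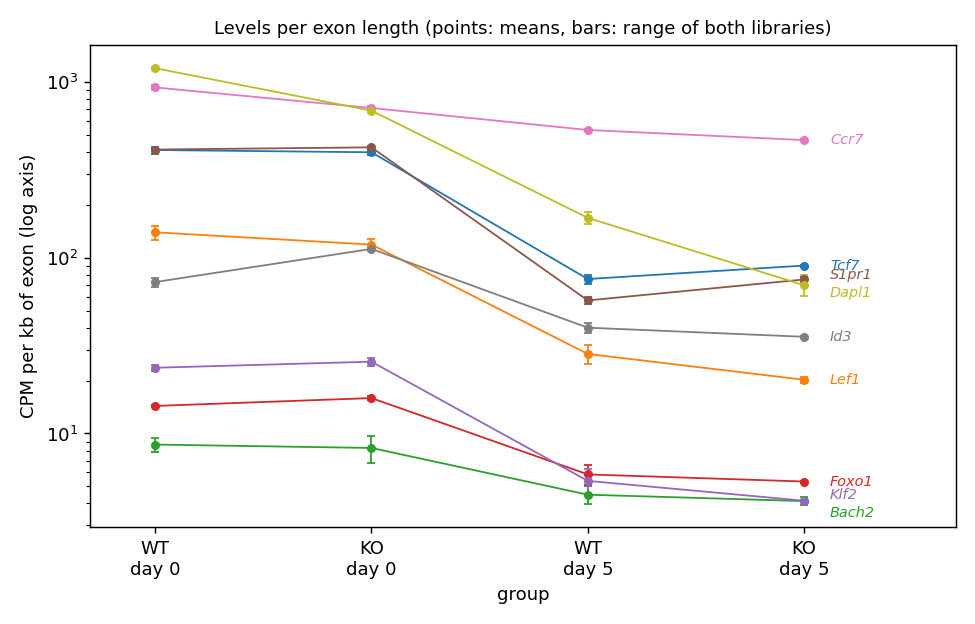
CPM per kb of exon (vertical log axis) of the 9 genes in the 4 groups; points are group means and bars the range of both libraries. *Dapl1* starts above *Ccr7* in WT cells at day 0 (1200 against 932.6) and ends well below it in KO cells at day 5 (69.8 against 467.8).

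The courses of the members over the 8 libraries were compared by the root mean square difference of centred log2 CPM, where 0 would be an equal course. The closest pairs of members were *Klf2* and *Lef1* (0.171), *Foxo1* and *Id3* (0.209), *S1pr1* and *Tcf7* (0.224) and *Bach2* and *Ccr7* (0.233), followed by *Klf2* and *Tcf7* (0.249). *Dapl1* was nearest to *Lef1*, at 0.486. Among 8084 other genes, the closest course to both *Lef1* and *Klf2* was that of *Btg1*, an antiproliferative gene of resting lymphocytes (0.138 and 0.122). *Cd1d1* was closest to *Tcf7* (0.099), *Orai2*, a subunit of calcium channels, to *S1pr1* (0.098), *Card6* to *Foxo1* (0.084), *Rab11fip1* to *Bach2* (0.093), *Rplp1*, a ribosomal protein gene, to *Ccr7* (0.083) and *Fam208a* to *Id3* (0.119). *Dapl1* had no gene as close: its nearest was *Siah1a* at 0.245, then *Bcl9l* at 0.336. *Siah1a*, a ubiquitin ligase gene, averaged 34.81 CPM in WT and 18.18 CPM in KO libraries at day 0, and 4.74 and 2.70 CPM at day 5. All 8 libraries enter each distance, which is a description without a test.

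Other genes of the same circuit mostly declined with the members. Of 11 genes of the FOXO and KLF circuit, 8 fell and 1 rose over culture in WT cells and the same numbers did in KO cells, beside 23.6% and 24% of all tested genes that fell, with median log2 fold changes of -1.80 and -1.10. *Il7r*, the receptor chain for interleukin 7, went from 986.1 and 1006 CPM to 18.34 and 29.64 CPM in WT cells and from 1356 and 1394 CPM to 49.48 and 55.1 CPM in KO cells. *Klf3* fell as well, with log2 fold changes of -3.17 in WT and -4.03 in KO cells, as did *S1pr4*, a related sphingosine 1-phosphate receptor (-1.82 and -0.98), *Sesn1* (-1.80 and -1.60) and *Foxp1* (-1.03 and -1.10). The gene that rose was *Klf6*, named after its values were seen, by 0.61 in WT and 1.03 in KO cells; the rise in WT was lost without WT day 0 replicate 1 (edgeR FDR 0.0506) and with an offset for GC content and length (edgeR FDR 0.198). Between genotypes at day 0, 0 of the 11 were called by edgeR and 1 by DESeq2, and 3 passed an unadjusted p of 0.05. At day 5, edgeR called 3, of which 2 were higher in KO (*Il7r* and *Klf6*) and 1 was lower. Of all tested genes, edgeR called 1.8% at day 0 and 1.63% at day 5. *Il7r* was higher in KO at day 5 (1.14 ± 0.18, edgeR FDR 0.00909), a call lost without KO day 5 replicate 2 (edgeR FDR 0.0989) and with only the 4 day 5 libraries in the fit (0.0543). *Klf6* was higher in KO at day 5 as well (0.74 ± 0.15, edgeR FDR 0.0286), but lost its call in 6 of 18 alternatives, without either WT day 0 library or any 1 of the 4 day 5 libraries (edgeR FDR 0.0512 to 0.19).

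**Figure D5:**
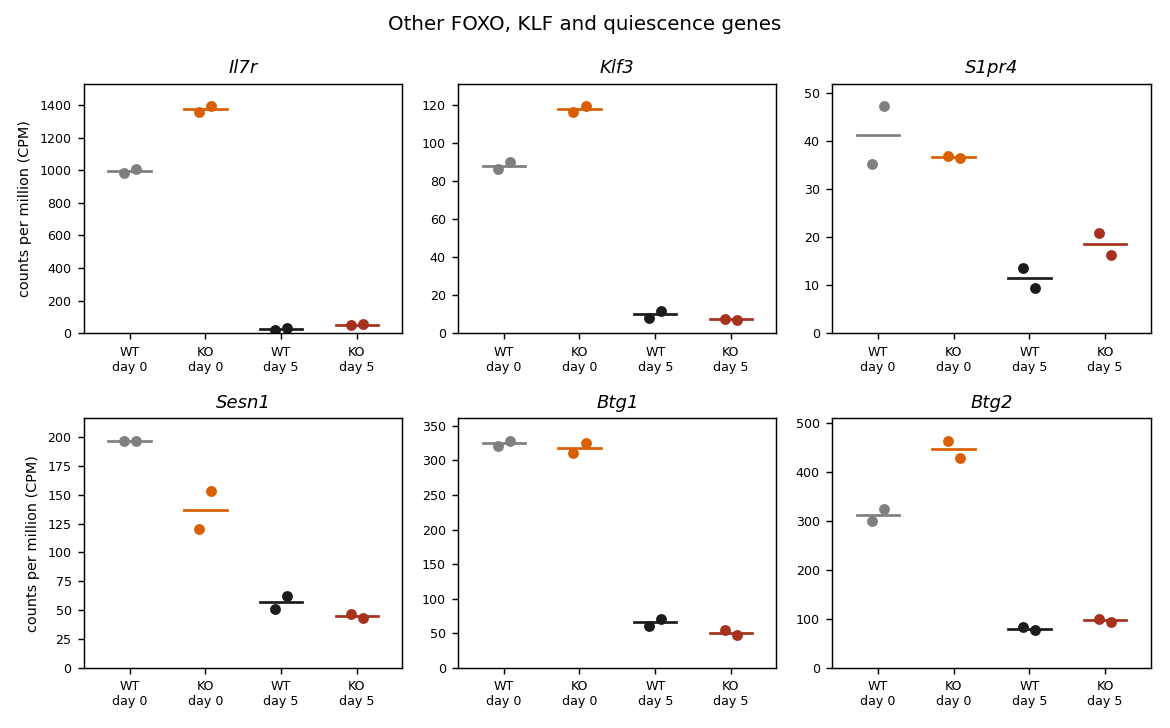
CPM (vertical axes from 0, one scale per gene) of 6 genes of the FOXO and KLF circuit and of quiescence in the 8 libraries; each point is a library and each line a group mean. *Il7r* shows KO libraries at 49.48 and 55.1 CPM against 18.34 and 29.64 CPM in WT at day 5, and all 6 genes are lower in each day 5 library than in each day 0 library.

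Of 13 quiescence genes, which hold back growth and division, 9 fell in WT and 9 in KO cells, beside 23.6% and 24% of all tested genes, with medians of -0.98 and -0.95. The other 4 in each genotype did not pass the test, among them *Foxo3* (-0.02 in WT and -0.01 in KO cells) and *Cdkn1b* (-0.06 and -0.25), named after their values were seen, and some of the 13 also stand in the list of the FOXO and KLF circuit. The log2 fold changes in WT and KO cells were -3.52 and -3.14 for *Tsc22d3*, -2.31 and -2.64 for *Btg1*, -1.96 and -2.20 for *Btg2* and -1.24 and -1.81 for *Slfn2*. That of *Tsc2* was -1.12 in WT and -0.85 in KO cells, where its call was lost without KO day 0 replicate 1 (edgeR FDR 0.0567) or KO day 5 replicate 1 (0.155). At day 0, when 1.8% of all tested genes were called between genotypes, 1 of the 13 was, *Btg2*, higher in KO (0.52 ± 0.12, edgeR FDR 0.0449), a call lost in 8 of 18 alternatives, among them each of the 4 day 0 libraries and either KO day 5 library left out (edgeR FDR 0.0682 to 0.355), the replicate block (0.055) and thinning to equal depth (0.0534). At day 5, 0 of the 13 were called by edgeR and 0 by DESeq2, and 4 passed an unadjusted p of 0.05.

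A list of TCF, E protein, ID and BACH family genes and of partners of TCF proteins held 8 tested genes. Of these, 2 fell and 1 rose in WT cells, and 3 fell and 1 rose in KO cells. The shares of all tested genes that fell were 23.6% and 24%. The one that rose was *Id2*, the ID family member of effector cells, by 1.20 in WT and 1.81 in KO cells on the log2 scale, while *Id3* fell. *Tle4*, a corepressor that binds TCF proteins, fell (-1.19 and -1.48), and *Tcf12*, an E protein gene, fell in KO cells (-0.87) and stood at -0.29 ± 0.16 in WT cells (edgeR FDR 0.159). *Tcf7l2* had at most 3 counts in each day 5 library, so no fold is given. Between genotypes 0 of the 8 were called by edgeR or DESeq2 on either day, with 3 at day 0 and 0 at day 5 at an unadjusted p under 0.05.

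Of 8 tested surface and marker genes of naive CD8+ T cells, 7 fell in WT cells, and in KO cells 6 fell and 1 rose, beside 23.6% and 24% of all tested genes that fell. The log2 fold changes of *Actn1* were -5.20 and -4.45 and those of *Itgae* -4.42 and -3.79, and *Ccr9*, at between 262.1 and 305.7 CPM at day 0, had at most 3 counts in each day 5 library. Of the 8, 2 were called between genotypes at day 0, beside 1.8% of all tested genes, and both were lower in KO: *Igfbp4* (-1.50 ± 0.23, edgeR FDR 0.00547) and *Npm3*, named after its values were seen (-1.13 ± 0.21, edgeR FDR 0.0195). The call of *Igfbp4* was lost without WT day 0 replicate 1 (edgeR FDR 0.0742) or replicate 2 (0.0802), and that of *Npm3* without WT day 0 replicate 1 (0.149), replicate 2 (0.141) or KO day 0 replicate 2 (0.086). *Npm3* was also the gene that rose in KO cells, by 1.41. Between genotypes at day 0 the median log2 fold change of the 8 was -0.09. DESeq2 called 4 of them at day 0, and 4 passed an unadjusted p of 0.05. At day 5, edgeR called 2 of the 8, 1 higher and 1 lower in KO, beside 1.63% of all tested genes. DESeq2 called 3 at day 5, and 4 passed an unadjusted p of 0.05.

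Of 9 tested egress and homing genes, 3 fell and 3 rose in WT cells, and 4 fell and 3 rose in KO cells; of all tested genes, 23.6% fell and 24.7% rose in WT cells and 24% fell and 26.2% rose in KO cells. Besides *S1pr4*, *Itgb7* fell (-1.09 in WT and -0.79 in KO cells on the log2 scale). Of the chemokine receptors, *Cxcr3* rose by 2.50 and 1.53, *Cxcr6*, named after its values were seen, did not pass the test (0.38 and -0.37, edgeR FDR 0.223 in each genotype), and *Ccr2*, at no more than 4.04 CPM in any day 0 library, lay between 153.7 and 257.3 CPM at day 5. Of 9 tested effector factors, 7 rose in WT cells, and 8 rose and 1 fell in KO cells, beside the same shares of all tested genes. *Irf4* rose by 4.42 and 3.97, *Myc* by 1.82 and 2.15, *Eomes* by 2.07 and 1.46 and *Hif1a* by 1.76 and 1.46, in WT and KO cells. *Ikzf2*, which is also a regulatory T cell marker, was the one effector factor called between genotypes at day 0, higher in KO (2.21 ± 0.29, edgeR FDR 0.00198; without WT day 0 replicate 1 or 2, 0.0741 and 0.0555), and the one that fell over culture in KO cells (-1.75). At day 5, 0 of the 9 effector factors were called between genotypes by edgeR and 1 by DESeq2, and 2 passed an unadjusted p of 0.05.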

How the data were processed

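Total RNA of sorted splenic CD8+ T cells was sequenced in 8 libraries, 2 per group. The authors deposited, for each library, a table of unnormalized counts by gene symbol, which per the labels were made with HISAT2 2.1.0 and HTSeq 0.11.1 on mm10; the annotation and strand setting are not given in the sources used here. Gene counts made up 21.2% to 24.5% of the records of a library.

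Groups came from the labels. The counts of 12597 genes that passed the edgeR filter (minimum count 10) were tested with edgeR 4.0.16 (R 4.3.3) in 1 quasi-likelihood fit over all 8 libraries with TMM factors and a mean per group. P-values were two-sided and adjusted by Benjamini-Hochberg over all tested genes (FDR), and FDR under 0.05 was called. The common biological coefficient of variation was 15%. CPM used TMM-scaled library sizes, and exon lengths came from GENCODE on GRCm38. The script was tested on simulated data.

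The members and gene lists were chosen with earlier results of these data known. From each list, up to 6 called genes with the largest absolute change and at least 10 CPM in the higher group were named; some listed genes that enter the counts are not reported here. Course likeness used log2 CPM with 0.5 added to each count before scaling, and candidates had at least 10 CPM in the highest group. Alternatives were DESeq2 1.42.0, other scalings and filters, only the compared libraries, a replicate block, the edgeR 4 form, thinning to 4170126 counts, each library left out and, added after the data were seen, an offset for GC content and length. The replicate numbers are shared by all groups, but nothing states that they pair samples.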

Additional observations from a re-analysis of the deposited data

Results flagged for a closer look

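The change of the genotype difference between day 0 and day 5 passed the test for the targeted gene *Satb1*, at -1.34 ± 0.21 on the log2 scale (edgeR FDR 0.0269), from 0.51 at day 0 to -0.84 at day 5. The call was lost with the offset for GC content and length (edgeR FDR 0.102) and without either WT day 0 library, KO day 0 replicate 1, WT day 5 replicate 2 or either KO day 5 library (edgeR FDR 0.0501 to 0.23). No member passed this test in edgeR; *Id3* was nearest at -0.80 (edgeR FDR 0.132). No group held enough libraries for a check of single libraries that stand apart.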

How the results depend on the processing

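All 9 members stayed called lower over culture in both genotypes in each of the 18 alternatives, and *Dapl1* at day 5 stayed called lower in KO in each. With 2 libraries per group, leaving 1 out leaves a lone library that is assumed to vary like the other groups. Members called then ranged from 0 to 3 at day 0, and genes called from 38 to 276 at day 0, 32 to 249 at day 5 and 0 to 41 for the interaction (227, 205 and 20 with all libraries). Members called fell to 0 at day 0 without either WT library or KO replicate 2 of that day, and to 1 without KO day 0 replicate 1 or either KO day 5 library. Genes called at day 0 dropped to 38 and 49 without WT replicate 1 and 2 of that day. Genes called at day 5 dropped to 121 and 119 without WT day 0 replicate 1 and 2, to 84 without WT day 5 replicate 2, and to 54 and 32 without KO day 5 replicate 1 and 2. The interaction dropped to 0 and 1 without WT day 0 replicate 1 and 2 and to 3 and 4 without KO day 5 replicate 1 and 2, and rose to 41 without WT day 5 replicate 1. Without a filter on low counts 434, 418 and 154 genes were called. DESeq2 called 319 genes and 2 members at day 5, and 139 genes and 1 member for the interaction. Thinning gave 34 interaction genes, and correcting for GC content and length by an offset gave 106 at day 5 and 12 for the interaction; the causes were not tested. Differences that were never called turned sign. *Tcf7* at day 0 came to 0.039 with the offset and, with 1 library left out, to between -0.107 and 0.021 (above 0 without WT day 0 replicate 2). *Bach2* at day 0 ranged from -0.351 to 0.201 (0.079 without WT replicate 1 and 0.201 without KO replicate 2 of that day), at day 5 from -0.268 to 0.053 (without WT day 5 replicate 2), and for the interaction from -0.333 to 0.233 (0.063 without WT day 0 replicate 2, 0.233 without KO day 0 replicate 1, 0.081 without WT day 5 replicate 2, 0.019 without KO day 5 replicate 1), and to 0.037 when thinned. *Foxo1* at day 5 ranged from -0.316 to 0.083 (without WT day 5 replicate 1). Scaling by library totals shifted the median of all genes over culture by -0.14 in WT and -0.18 in KO cells, and the offset by -0.15 and -0.24. The split of higher and lower calls, 3112 and 2969 in WT and 3296 and 3029 in KO cells, became 2668 and 3560 and 2755 and 3936 by totals, and 2547 and 3557 and 2706 and 3900 with the offset, and for the interaction 10 and 10 became 9 and 15 by totals. Same-numbered libraries deviated together only weakly (correlations from -0.07 to 0.23), so the numbers were not taken as pairs; the replicate block gave 216, 215, 5999, 6291 and 29 calls for day 0, day 5, culture in WT, culture in KO and the interaction, and changed the call of no member. On library totals, 18 group levels of the members moved by more than their SD and 18 did not. Depth limits *Klf2* most among the members, at 41 to 48 counts in the day 5 libraries.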
